A study of Mus musculus with 18 samples.

Results

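The Frizzled receptors are a family of 10 mouse genes, Fzd1 to Fzd10. The members were taken by symbol, after the Ensembl identifiers of the deposited files had been paired with symbols in the GENCODE M21 annotation of GRCm38, and all 10 were found among the 52636 genes listed. The RNA came from mouse lung cells labelled alveolar type 2, the surfactant-making stem cells of the alveolus, and every group received LGK974, an inhibitor of Porcupine that keeps cells from secreting active Wnt proteins of their own. Culture lasted 19 days in the presence of CHIR99201, which the labels call a Wnt agonist, before the 6 groups of 3 libraries compared here were formed. The group called CHIR here stayed on LGK974 and CHIR99201 and is the labelled control. The 24 h withdrawal and 48 h withdrawal groups had LGK974 and no CHIR99201 for 24 h and 48 h. The WNT, FZD5 agonist and FZD6 agonist groups had CHIR99201 replaced by Wnt, by an Fzd5 agonist or by an Fzd6 agonist, each with LGK974. The treatment protocol gives 8 to 12 h for all of these modulators, so the time that the 3 ligand groups spent without CHIR99201 is not known. The samples' labels name no strain, sex, age or dose. They also do not say whether the 3 libraries of a group are separate cultures or animals, so each p-value measures library-to-library spread that could be technical.

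Frizzled proteins cross the membrane several times and carry a cysteine-rich domain outside the cell that holds the lipid of a Wnt protein. With Lrp5 or Lrp6 as co-receptor, a bound Frizzled recruits Dishevelled, the complex that destroys beta-catenin is held in check, and TCF/LEF factors turn on genes such as Axin2. The ubiquitin ligases Rnf43 and Znrf3 remove Frizzleds from the surface, and R-spondins acting through Lgr4, Lgr5 or Lgr6 spare them. By protein similarity the family falls into the subgroups Fzd1, Fzd2 and Fzd7, then Fzd5 and Fzd8, then Fzd4, Fzd9 and Fzd10, and lastly Fzd3 and Fzd6, which are best known for planar cell polarity. In the adult lung, Wnt signalling is known to keep alveolar type 2 cells in their stem cell state.

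Gene counts summed to between 31509607 and 52030066 per library, of which 2542 to 25770 fell on the 10 Frizzled genes. Of the 18 libraries, 4 stood apart: CHIR 1, CHIR 3, 24 h withdrawal 2 and FZD6 agonist 1, where the number is the replicate. Their median correlation of log2 values with the other libraries was 0.782 to 0.950, against 0.966 to 0.982 for the other 14. The value of 0.966 belonged to CHIR 2, and the rest of the 14 were at 0.978 or more. All 3 CHIR libraries lay below that, so for CHIR this measure cannot separate the treatment from libraries that stand apart. In 24 h withdrawal 2, 4.13% of counts were mitochondrial, against at most 0.659% in the 14. The airway genes Scgb1a1, Bpifa1 and Reg3g reached 26.5 to 208.1 CPM (counts scaled to library size with TMM factors) in CHIR 3, 24 h withdrawal 2 and FZD6 agonist 1. They were at most 0.947 CPM in the 14 libraries, and in CHIR 1 they were at 0.246, 0.246 and 0 CPM. These genes belong to a list of 8 airway secretory markers that as a whole did not set the 4 libraries apart. Its summed level was 46.5 to 1030 CPM in the 4 and 47.1 to 658 CPM in the 14. All 9 alveolar type 2 markers were counted in every group, with a summed level of 59640 to 157663 CPM, 117341 to 157663 CPM in the 4 libraries and 59640 to 83511 CPM in the 14. The summed levels of 7 mesenchymal and 5 endothelial markers were at most 0.840 and 0.119 CPM. Those of 5 haematopoietic, 5 ciliated and 3 basal markers reached 13.6, 21.7 and 9.27 CPM. The basal sum was at most 0.0238 CPM in the 14, and the basal genes Trp63 and Krt5 were counted only in CHIR 3 and FZD6 agonist 1. Each result is therefore given over all 18 libraries and over the 14. In the 14, CHIR is the single library CHIR 2, whose spread is assumed to be like that of the other groups, and 24 h withdrawal and FZD6 agonist keep 2 libraries each. The chi-square per degree of freedom between counts was 357 for CHIR 2 and CHIR 1 and 348 for CHIR 2 and CHIR 3. It was 456 for CHIR 1 and CHIR 3, so CHIR 2 was not close to either. In bulk RNA, fewer cells of a type and less RNA per cell cannot be told apart.

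The promoter sequences of Fzd5, which the first agonist is named for, and of Fzd7 and Fzd1, whose mRNAs varied most like that of Fzd5 over the 14 libraries, are shown so that their build can be compared. RefSeq sequence on GRCm38.p6 matched 6 of the 10 members: Fzd1, Fzd4, Fzd5, Fzd7, Fzd9 and Fzd10. Each line holds the 250 bases before the RefSeq start, 5′ to 3′ on the gene's own strand, and capitals mark matches on either strand to 3 motifs. These are CTTTGA for the TCF/LEF core, ATTGG for the CCAAT box, which is its other strand, and GGGCGG for the GC box.
Fzd5 promoter, chr1:64737751-64738000, minus strand: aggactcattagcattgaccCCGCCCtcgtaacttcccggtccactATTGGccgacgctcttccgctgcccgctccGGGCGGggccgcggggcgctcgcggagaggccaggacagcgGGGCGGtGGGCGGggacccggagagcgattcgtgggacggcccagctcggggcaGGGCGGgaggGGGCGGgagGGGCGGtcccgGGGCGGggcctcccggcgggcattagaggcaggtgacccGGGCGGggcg
Fzd7 promoter, chr1:59481897-59482146, plus strand: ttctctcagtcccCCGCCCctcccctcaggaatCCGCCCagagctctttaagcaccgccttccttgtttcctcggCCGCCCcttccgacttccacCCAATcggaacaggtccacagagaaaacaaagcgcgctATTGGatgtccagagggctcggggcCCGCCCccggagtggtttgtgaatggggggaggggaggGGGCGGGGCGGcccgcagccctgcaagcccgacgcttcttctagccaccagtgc
Fzd1 promoter, chr5:4758217-4758466, minus strand: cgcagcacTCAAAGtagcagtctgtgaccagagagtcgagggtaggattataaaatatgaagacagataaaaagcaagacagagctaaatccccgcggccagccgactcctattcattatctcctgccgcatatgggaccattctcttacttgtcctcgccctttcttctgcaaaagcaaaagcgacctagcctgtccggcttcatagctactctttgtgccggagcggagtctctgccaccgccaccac
The Fzd5 promoter held 9 GC boxes and 1 CCAAT box. That of Fzd7 held 6 GC boxes, of which 1 pair overlapped, and 2 CCAAT boxes, while that of Fzd1 held 1 TCF/LEF core and neither of the other motifs. Among the 6 Frizzled promoters, 5 held a GC box, 3 a CCAAT box and 1 a TCF/LEF core. By GENCODE M21 coordinates the Fzd10 stretch, chr5:128600856-128601105, lies inside its gene. The Fzd9 stretch, chr5:135251048-135251297, lies largely inside its own. Among all 32851 promoters of the same length in the RefSeq table, 32.7% held a GC box, 33.8% a CCAAT box and 13.8% a TCF/LEF core. A match is a run of letters and no evidence of binding. In GENCODE M21, Fzd5 lies at chr1:64730558-64737751 on the minus strand, Fzd7 at chr1:59482424-59486955 on the plus strand and Fzd1 at chr5:4753839-4758035 on the minus strand, and the transcripts of Fzd7 and Fzd1 have 1 exon.

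The first question was which receptor mRNAs are present in cells given the agonists. Receptor protein and its level at the cell surface were not measured. Levels of different genes were compared per length, as CPM per kb of the deposited gene width. Averaged over the 14 libraries, the order was Fzd1 at 34.9 ± 7.87 CPM per kb (SD, n = 14), Fzd7 at 21.6 ± 3.73, Fzd6 at 17.9 ± 1.38, Fzd4 at 8.21 ± 1.55, Fzd8 at 6.96 ± 2.05, Fzd5 at 1.59 ± 0.319, Fzd2 at 1.03 ± 0.220, Fzd3 at 0.970 ± 0.208 and Fzd9 at 0.224 ± 0.072 CPM per kb. In this order Fzd6 and Fzd4 did not overlap in any of the 14 libraries, nor did Fzd8 and Fzd5. The place of Fzd8 depends on the length used, since its longest annotated transcript is 5974 bases against a deposited width of 3346. By that transcript Fzd8 averaged 3.90 ± 1.15 CPM per kb (SD, n = 14), and its lowest library, at 1.79, overlapped with the highest of Fzd5, at 2.29. Fzd10 had 1 count in 24 h withdrawal 3, 1 in FZD6 agonist 1 and none elsewhere, where 3 counts correspond to 0.0577 to 0.0952 CPM, so it was not detectable at this depth. Fzd6 and Fzd5, the receptors the agonists are named for, were thus the third and the sixth members by average mRNA level. Over the 14 libraries Fzd6 overlapped with Fzd7 before it, and Fzd5 with Fzd2 after it. The per-length level of Fzd6 was 7.95 to 15.0 times that of Fzd5 in each of the 14 libraries, and 2.02 to 15.9 times over all 18, with the lowest ratio in 24 h withdrawal 2.

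Within groups the order was nearly the same. At 48 h of withdrawal it ran Fzd1, Fzd7, Fzd6, Fzd8, Fzd4, Fzd5, with no overlap between neighbours in the 3 libraries, followed by Fzd3 and Fzd2, which overlapped with each other and not with Fzd5. With WNT the order was the same, but Fzd7 overlapped with Fzd6 and Fzd8 with Fzd4. By the longest annotated transcript, Fzd8 instead followed Fzd4 in both groups. At 48 h it was then at 5.14 to 6.08 CPM per kb and overlapped with Fzd4, at 5.96 to 7.60. In the WNT libraries it was at 4.19 to 4.68 CPM per kb without overlap with Fzd4, at 7.17 to 8.17, and Fzd7 no longer overlapped with Fzd6. By deposited width again, with the FZD5 agonist Fzd4 (9.07 ± 2.88 CPM per kb, SD, n = 3) stood before Fzd8 (5.93 ± 0.974), and the libraries of the 2 genes overlapped. In the 2 ordinary FZD6 agonist libraries Fzd4 (9.34 and 9.60 CPM per kb) lay above Fzd8 (6.01 and 6.34) without overlap. Over all 3 CHIR libraries Fzd6 led at 15.1 ± 2.99 CPM per kb and every neighbour down to Fzd9 overlapped; CHIR 2 had Fzd1 first at 18.3 and Fzd6 second at 16.9. The family's summed level was 64.3 CPM per kb in CHIR 2, 78.9 and 85.4 in the 2 ordinary 24 h withdrawal libraries and 86.6 to 117 in the other 11 of the 14. CHIR 1 and 24 h withdrawal 2 held 23.6 and 16.5 CPM per kb.

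**Figure D1:**
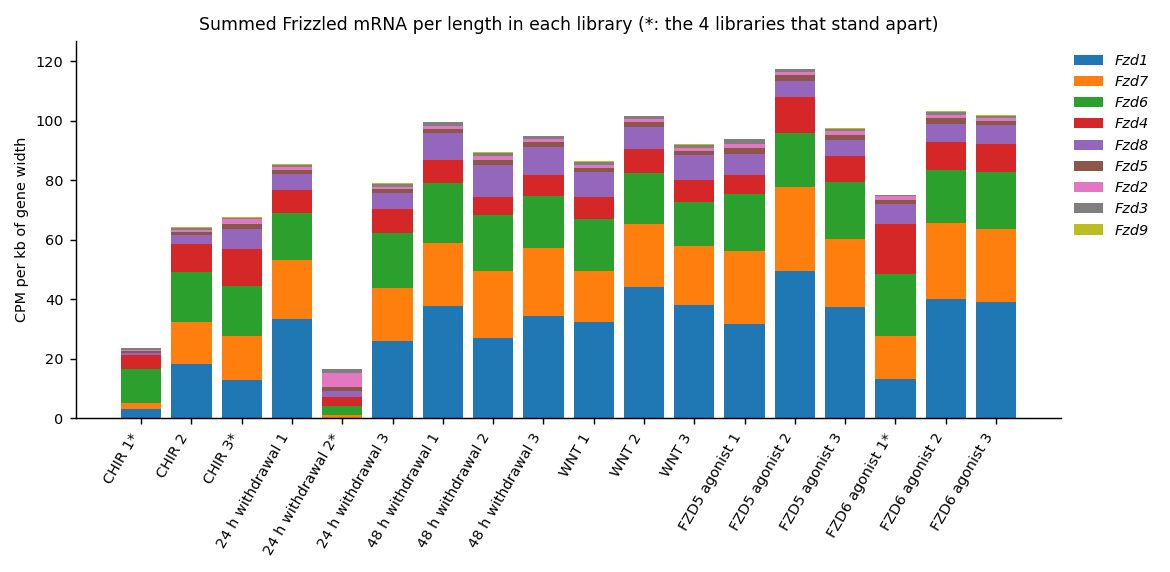
Stacked bars give the level of each Frizzled mRNA, in CPM per kb of gene width, in each of the 18 libraries, with an asterisk on the 4 that stand apart; Fzd10 is too low to draw. Fzd1, Fzd7 and Fzd6 make up most of every bar among the 14, Fzd5 is a thin band of 1.34% to 2.19%, and CHIR 1 and 24 h withdrawal 2 are short.

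Fzd5 (ENSMUSG00000045005) is a receptor for canonical Wnt signalling. It was counted at 5.06, 7.78 and 11.6 CPM in CHIR, 8.93, 10.4 and 8.74 CPM at 24 h of withdrawal, and 9.25, 11.3 and 11.2 CPM at 48 h. With WNT it was at 9.86, 11 and 10.9 CPM, with the FZD5 agonist at 14.2, 15.8 and 11.6 CPM and with the FZD6 agonist at 10.9, 13.1 and 10.4 CPM. The 3 FZD5 agonist libraries were above all those of 48 h withdrawal and WNT, and overlapped with the FZD6 agonist group. Fzd5 rose over the 14 libraries with the FZD5 agonist against CHIR 2, by a log2 fold change of 0.87 (SE 0.199, edgeR adjusted p = 0.00889), where 13.6% of all genes were called in either direction. Against 48 h withdrawal the value was 0.41 (SE 0.134, adjusted p = 0.0514) and against WNT 0.39 (SE 0.133, adjusted p = 0.0577), neither past the threshold of 0.05. DESeq2 on the same 14 libraries gave adjusted p-values of 0.0365 and 0.0403 for these, where it called 21.4% and 22% of genes. Against 24 h withdrawal Fzd5 rose by 0.67 (SE 0.153, adjusted p = 0.0229), where 4.23% of genes were called. Over all 18 libraries none of these passed in edgeR, with adjusted p = 0.213 against CHIR, 1.0 against 48 h withdrawal and WNT, and 0.276 against 24 h withdrawal. The 2 agonists did not differ in Fzd5 beyond the spread: the log2 difference, FZD5 agonist minus FZD6 agonist, was 0.25 (95% interval -0.07 to 0.57) over the 14 libraries.

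Fzd6 (ENSMUSG00000022297, chr15:39006034-39038188, plus strand, with up to 7 exons), a receptor known from planar polarity, had the smallest spread of the members over the 14 libraries. It was counted at 48.1, 69.7 and 69.4 CPM in CHIR, 65.3, 12.5 and 76.3 CPM at 24 h of withdrawal, and 82.8, 77.4 and 72.5 CPM at 48 h. With WNT it was at 73.0, 70.3 and 62.1 CPM, with the FZD5 agonist at 79.3, 75.2 and 79.3 CPM and with the FZD6 agonist at 86.6, 74.6 and 77.9 CPM. All 3 CHIR libraries lay below those of 48 h withdrawal and of both agonists, and the WNT libraries lay below those of both agonists, by small margins except in CHIR 1. The other pairs of groups overlapped, with 24 h withdrawal 2 far below the rest. Its coefficient of variation was 7.69% over the 14 libraries, against 17.3% to 32.0% for the other 8 members above the filter on low counts. Over all 18 it was 23.9%, against 22.4% for Fzd5. Fzd6 was called in 0 of 12 comparisons in either fit. Its log2 fold changes over the 14 libraries ran from -0.17 to 0.19, with 95% intervals that reached from -0.33 to 0.43 at the extremes. Over all 18 they ran from -0.28 to 0.59, with intervals from -1.15 to 1.47.

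**Figure D2:**
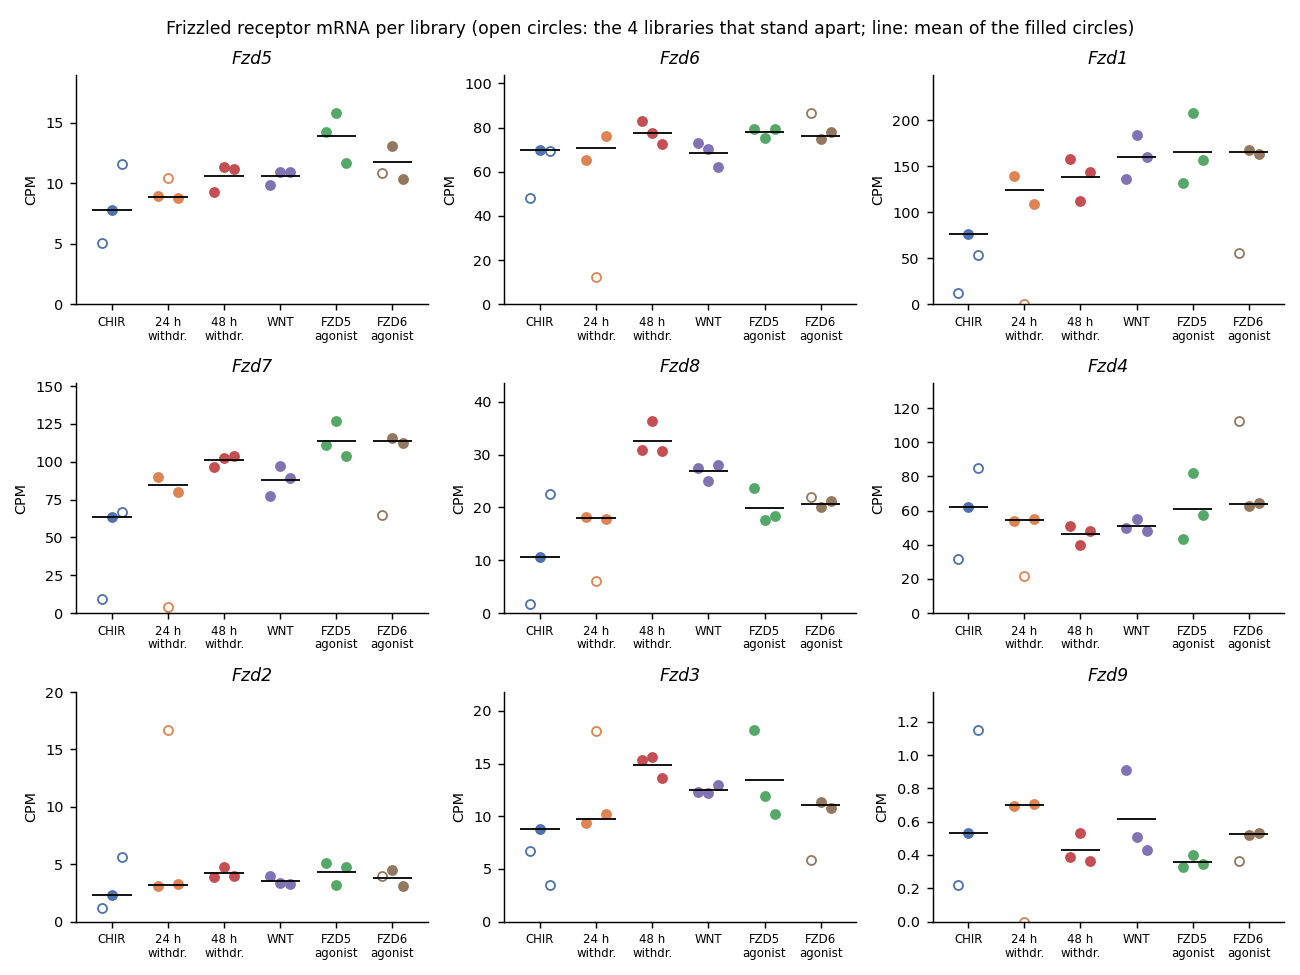
Each panel gives 1 Frizzled mRNA in CPM (linear axis from 0) for the 6 groups; points are libraries, open points are the 4 that stand apart, and the line is the mean of the filled points. Fzd8 has its highest values at 48 h of withdrawal and lower ones with either agonist, Fzd6 stays between 62.1 and 82.8 CPM among the filled points, and Fzd1 and Fzd7 are lowest in CHIR and in the open points.

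In the main test, over all 18 libraries, none of the 9 members above the filter was called in any of the 12 comparisons. Of these 108 results 0 were called by edgeR's quasi-likelihood test, 7 had an unadjusted p under 0.05, and the lowest adjusted p was 0.0865 (Fzd3, 48 h withdrawal against CHIR). DESeq2 called 1, the same gene and comparison (adjusted p = 0.0173), where it called 7.76% of all genes. Few genes of any kind were called in that fit: 2.59% for 48 h withdrawal against CHIR, 1.92% for WNT against CHIR, 0.0485% for 48 h against 24 h withdrawal, 0.0121% for FZD6 agonist against 48 h withdrawal, 0.00606% for each agonist against CHIR and 0% for the remaining 6. With 24 h withdrawal as the baseline, that fit called 0.0303% of genes for WNT, 0.00606% for the FZD5 agonist and 0% for the FZD6 agonist, and no member. Over the 14 libraries 24 of the 108 were called (22.2%) and 43 had an unadjusted p under 0.05 (39.8%). Over the same 12 comparisons, 12.9% of the results of all genes were called and 24.2% had an unadjusted p under 0.05. By gene, these were 9 for Fzd8, 6 for Fzd7, 4 for Fzd1, 2 each for Fzd2 and Fzd3, 1 for Fzd5 and 0 for Fzd4, Fzd6 and Fzd9. Comparisons with CHIR share the 1 library CHIR 2, and those with 48 h withdrawal or WNT share their controls, so calls within each set are not independent of one another.

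Fzd8 (ENSMUSG00000036904, chr18:9212163-9218136, plus strand, 1 exon), the closest relative of Fzd5, was the member called most often over the 14 libraries, in 9 of 12 comparisons. It was counted at 1.75, 10.7 and 22.6 CPM in CHIR, 18.2, 6.06 and 17.7 CPM at 24 h of withdrawal, and 30.9, 36.3 and 30.7 CPM at 48 h. With WNT it was at 27.5, 25.0 and 28.0 CPM, with the FZD5 agonist at 23.6, 17.7 and 18.3 CPM and with the FZD6 agonist at 22.0, 20.1 and 21.2 CPM. All 3 libraries of 48 h withdrawal lay above every other library, the WNT libraries came next, and all 6 agonist libraries lay below both; the 48 h, WNT and agonist ranges did not overlap.

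Fzd8 rose with withdrawal in the 14 libraries. Against CHIR 2 it was higher at 24 h by a log2 fold change of 0.76 (SE 0.177, edgeR adjusted p = 0.0252) and at 48 h by 1.63 (SE 0.176, adjusted p = 7.17e-06). The step from 24 h to 48 h was 0.87 (SE 0.129, adjusted p = 0.000287). At 24 h Fzd8 was the 1 member called of 9, where 4.5% of all genes were called; at 48 h against CHIR 2 there were 5 members of 9 with 27.5% of all genes, and from 24 h to 48 h 2 of 9 with 18%. The 3 values over all 18 libraries were 0.26 (adjusted p = 0.851), 1.48 (adjusted p = 0.206) and 1.22 (adjusted p = 0.280). The call at 24 h was lost when either of its libraries was left out (adjusted p = 0.102 without 24 h withdrawal 1 and 0.0535 without 24 h withdrawal 3). The calls at 48 h were kept in 3 of 3 and 5 of 5 such fits. From the 18, leaving out 1 library at a time gave 0.97 to 2.40 for 48 h against CHIR, with edgeR adjusted p up to 0.420. It was called in 1 of these 6 fits, the one without CHIR 3 (2.40, adjusted p = 0.0310). The CHIR libraries not among the 14 lay on either side of CHIR 2 at 10.7 CPM. CHIR 3 held 22.6 CPM, above both ordinary 24 h libraries at 18.2 and 17.7 CPM, and CHIR 1 held 1.75 CPM.

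With either agonist Fzd8 was lower than at 48 h of withdrawal. It fell, over the 14 libraries, by 0.71 on the log2 scale with the FZD5 agonist (SE 0.112, adjusted p = 0.000546) and by 0.65 with the FZD6 agonist (SE 0.127, adjusted p = 0.00291). It was the 1 member of 9 called in each of these comparisons, where 15.7% and 12.1% of all genes were called, 6.84% and 4.73% of all genes as lower. The FZD5 agonist and 48 h withdrawal groups hold none of the 4 libraries, and a fit of these 2 groups alone gave -0.73 (SE 0.128, adjusted p = 0.00679, with 13.0% of genes called). The values over all 18 libraries were of like size, -0.72 and -0.63, and adjusted p was 1.0 in both. The FZD5 agonist call was kept when each library was left out of the 14 in turn (6 of 6), and the FZD6 agonist call was lost without FZD6 agonist 2 (-0.61, adjusted p = 0.0556). The agonists did not differ from each other in Fzd8 beyond the spread (-0.05, 95% interval -0.32 to 0.21), and against 24 h withdrawal the values were 0.16 (-0.11 to 0.43) for the FZD5 agonist and 0.22 (-0.08 to 0.51) for the FZD6 agonist, neither called (0.677% of genes were called for the latter).

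Against WNT, Fzd8 was lower with the FZD5 agonist by 0.44 on the log2 scale over the 14 libraries (SE 0.112, adjusted p = 0.0139). This call was lost without WNT 3 (adjusted p = 0.0624), FZD5 agonist 2 (0.0664) or FZD5 agonist 3 (0.0602), and in a fit of the 2 groups alone (adjusted p = 0.0515). For the FZD6 agonist against WNT the value was -0.38 (SE 0.126, adjusted p = 0.0612). WNT and 48 h withdrawal differed in Fzd8 by -0.27 (SE 0.111, adjusted p = 0.631), and 0 of 9 members and 0% of all genes were called between them. At unadjusted p under 0.05 there were 2 of 9 members, Fzd7 and Fzd8, and DESeq2 called none of the 9 and 0.00342% of genes. Against 24 h withdrawal Fzd8 rose with WNT by 0.60 (SE 0.128, adjusted p = 0.00568, where 13.6% of genes were called). Summed markers of other epithelial states also differed between some of these groups. The summed level of 8 airway secretory markers was 525 to 658 CPM at 48 h and 497 to 552 CPM with WNT, against 141 to 355 CPM with the FZD5 agonist, 154 to 213 CPM in the 2 ordinary FZD6 agonist libraries, 125 to 153 CPM in those of 24 h withdrawal and 47.1 CPM in CHIR 2. It was 46.5 to 1030 CPM in the 4 libraries that stand apart. Of the 8 markers, 2 had no count in any library at 48 h, and 2 with WNT. These were Bpifa1 and Reg3g in both groups. Scgb1a1 was at most 0.947 CPM at 48 h and 0.667 CPM with WNT, so the sums there came from other markers of the list. The 9 alveolar type 1 markers summed to 4224 CPM in CHIR 2, 6735 to 7470 CPM in the 2 ordinary libraries at 24 h, 9181 to 10235 CPM at 48 h, 8794 to 9290 CPM with WNT, 7155 to 9600 CPM with the FZD5 agonist and 7853 to 7856 CPM in the 2 ordinary FZD6 agonist libraries. With the FZD5 agonist the type 1 sum overlapped with those of 48 h and WNT, whereas Fzd8 did not. The part of cells in these states in the levels of Fzd8 was not tested.

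**Figure D3:**
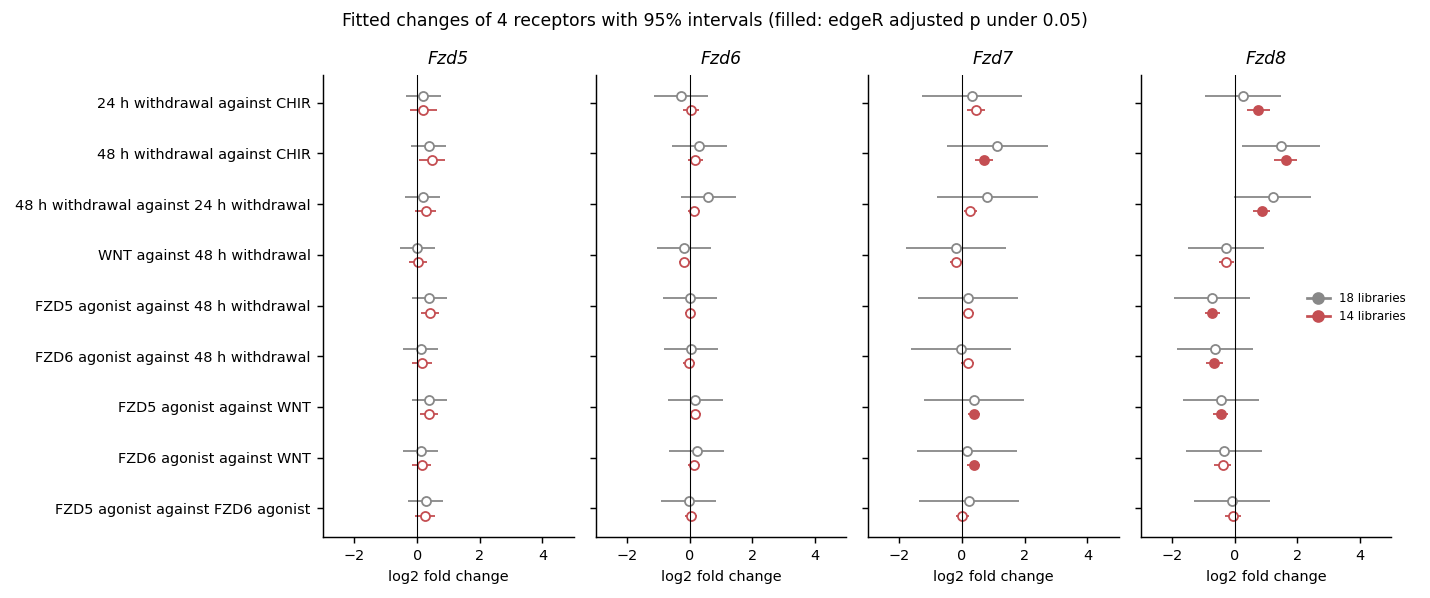
Points are edgeR log2 fold changes with 95% intervals for 4 receptors in 9 comparisons, grey for the fit over 18 libraries and red for that over 14; filled points passed an adjusted p of 0.05. The red points of Fzd6 lie within -0.17 to 0.19, no grey point is filled, and the filled red points of Fzd8 lie right of 0 for withdrawal and left of 0 for the agonists against 48 h withdrawal.

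Fzd7 (ENSMUSG00000041075) and Fzd1 (ENSMUSG00000044674), close relatives and the 2 most abundant members, were lowest in CHIR. Fzd7 was counted at 9.30, 63.3 and 66.9 CPM in CHIR, 89.6, 3.73 and 80.3 CPM at 24 h of withdrawal, and 96.8, 103 and 104 CPM at 48 h. With WNT it was at 77.1, 97.0 and 89.0 CPM, with the FZD5 agonist at 111, 127 and 104 CPM and with the FZD6 agonist at 65.1, 115 and 113 CPM. All 3 CHIR libraries lay below all of 48 h withdrawal, WNT and the FZD5 agonist, and the FZD5 agonist libraries lay above those of WNT. Over the 14 libraries Fzd7 rose against CHIR 2 at 48 h by 0.70 (SE 0.130, adjusted p = 0.000822), with WNT by 0.51 (SE 0.128, adjusted p = 0.00785), with the FZD5 agonist by 0.88 (SE 0.131, adjusted p = 0.000447) and with the FZD6 agonist by 0.88 (SE 0.137, adjusted p = 0.000972). Of the 9 members, 3 were called against CHIR 2 with WNT, 5 with the FZD5 agonist and 3 with the FZD6 agonist, where 26.6%, 13.6% and 8.48% of all genes were called.

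Between ligands Fzd7 was higher with the FZD5 agonist than with WNT by 0.37 (SE 0.0878, adjusted p = 0.00833). That comparison called 2 of 9 members, with 16.7% of all genes. The call was kept in 6 of 6 fits that left out 1 library and in a fit of these 2 groups alone (0.37, SE 0.102, adjusted p = 0.0416, with 13.1% of genes called). The FZD6 agonist gave the same value against WNT, 0.37 (SE 0.0973, adjusted p = 0.0213, where 1 of 9 members and 11.8% of genes were called). That call was lost without WNT 1 (0.29, adjusted p = 0.0769), WNT 3 (0.0572), FZD6 agonist 2 (0.155) or FZD6 agonist 3 (0.110). Over all 18 libraries the 2 values were 0.38 and 0.16, with adjusted p = 1.0 for both. The agonists differed in Fzd7 by 0.00 (95% interval -0.20 to 0.21), and 0 of 9 members and 0.00574% of all genes were called between them. None of the 9 had an unadjusted p under 0.05 there, and DESeq2 called none of them and 0.0137% of genes.

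Fzd1 was counted at 12.6, 77.0 and 53.7 CPM in CHIR, 140, 0.493 and 109 CPM at 24 h of withdrawal, and 158, 113 and 144 CPM at 48 h. With WNT it was at 136, 185 and 160 CPM, with the FZD5 agonist at 133, 208 and 157 CPM and with the FZD6 agonist at 55.7, 168 and 163 CPM. The 3 CHIR libraries lay below every library of the other groups except 24 h withdrawal 2 and, for CHIR 2, FZD6 agonist 1. Against CHIR 2, Fzd1 rose at 48 h by 0.87 (SE 0.276, adjusted p = 0.0397), with WNT by 1.10 (SE 0.279, adjusted p = 0.0147), with the FZD5 agonist by 1.14 (SE 0.280, adjusted p = 0.0234) and with the FZD6 agonist by 1.14 (SE 0.292, adjusted p = 0.0394). The call at 48 h was lost without 48 h withdrawal 1 (0.76, adjusted p = 0.0785) or 48 h withdrawal 3 (0.84, 0.0732), and that with the FZD6 agonist without FZD6 agonist 2 (0.120) or FZD6 agonist 3 (0.106). Over all 18 libraries no comparison called Fzd1, with adjusted p of 0.466 or more. No comparison among 48 h withdrawal, WNT and the agonists called it in either fit.

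Fzd4 (ENSMUSG00000049791, chr7:89404355-89413134, plus strand), a receptor for Norrin as well as Wnt proteins, was called in 0 of 12 comparisons in both fits. It was counted at 40.1 to 51.1 CPM at 48 h, 48.2 to 54.9 CPM with WNT, 43.5 to 81.8 CPM with the FZD5 agonist and 62.8 to 112 CPM with the FZD6 agonist. Its FZD6 agonist libraries lay above all of 48 h withdrawal and WNT, but the log2 fold change against 48 h withdrawal was 0.46 over the 14 libraries (SE 0.196, adjusted p = 0.162). Fzd2 (ENSMUSG00000050288, chr11:102604396-102608058, plus strand), the third member of the Fzd1 subgroup, was at 2.31 to 5.13 CPM in the 14 libraries and at 16.7 CPM in 24 h withdrawal 2. Against CHIR 2 it rose at 48 h by 0.88 (SE 0.298, adjusted p = 0.0378) and with the FZD5 agonist by 0.94 (SE 0.298, adjusted p = 0.0477). The first was lost without 48 h withdrawal 2 (0.0825) or 3 (0.0536), and the second without FZD5 agonist 1 (0.0973) or 3 (0.0938). CHIR 3, which is not in that fit, held 5.66 CPM, above every library of 48 h withdrawal and of the FZD5 agonist. The same differences over all 18 libraries were 0.47 (adjusted p = 0.775) and 0.52 (adjusted p = 0.774), and they ran from 0.08 to 1.29 and from 0.13 to 1.32 when 1 library was left out. Fzd2 was not called in any comparison over all 18 libraries (lowest adjusted p = 0.277).

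Fzd3 (ENSMUSG00000007989, chr14:65192449-65262463, minus strand), which acts in planar polarity with Fzd6, was at 8.75 CPM in CHIR 2, 9.32 and 10.2 CPM in the 2 ordinary libraries of 24 h withdrawal and 13.7 to 15.7 CPM at 48 h. It rose at 48 h over the 14 libraries by 0.79 against CHIR 2 (SE 0.242, adjusted p = 0.0235) and by 0.62 against 24 h (SE 0.187, adjusted p = 0.0323). The first call was kept in 3 of 3 fits that left out 1 library. The second was lost without 48 h withdrawal 1 (0.0800), 48 h withdrawal 2 (0.0808), 24 h withdrawal 1 (0.193) or 24 h withdrawal 3 (0.0967). The library left out of that group, 24 h withdrawal 2, held 18.1 CPM, above every 48 h library. This difference over all 18 libraries was 0.25 (SE 0.360, adjusted p = 0.751) and ran from 0.09 to 0.61 when 1 library was left out. Against CHIR, Fzd3 at 48 h gave 1.24 over all 18 libraries (SE 0.366, adjusted p = 0.0865 in edgeR). Fzd9 (ENSMUSG00000049551, chr5:135248938-135251230, minus strand) was at 0 to 1.15 CPM and was called in no comparison in either fit. Fzd10 (ENSMUSG00000081683, chr5:128600844-128604093, plus strand) did not pass the filter.

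Partners and feedback targets of the receptors were measured in the same libraries. Axin2, a feedback target of beta-catenin, was counted at 2.38, 9.43 and 1.55 CPM in CHIR, 2.20, 0 and 1.83 CPM at 24 h of withdrawal, and 0.413, 0.771 and 0.167 CPM at 48 h. With WNT it was at 0.384, 0.373 and 0.238 CPM, with the FZD5 agonist at 4.94, 2.88 and 2.95 CPM and with the FZD6 agonist at 1.09, 2.90 and 2.12 CPM. All 6 agonist libraries lay above all 6 of 48 h withdrawal and WNT. Axin2 rose over the 14 libraries against 48 h withdrawal with the FZD5 agonist by 3.01 (SE 0.373, adjusted p = 8.84e-05) and with the FZD6 agonist by 2.49 (SE 0.402, adjusted p = 0.000781). It was -0.40 with WNT (SE 0.451, adjusted p = 0.840). Lgr5, the R-spondin receptor, was at 0 to 0.112 CPM at 48 h, 0 to 0.310 CPM with WNT, 0.491 to 1.13 CPM with the FZD5 agonist, 0.855 to 2.69 CPM with the FZD6 agonist and 7.74, 10.1 and 1.06 CPM in CHIR. The lowest of these CHIR values, in CHIR 3, lay within the range of each agonist. At 24 h of withdrawal Lgr5 was at 1.17, 0 and 0.995 CPM. It was the only one of the 7 partners named here (Lrp5, Lrp6, Rnf43, Znrf3, Lgr4, Lgr5 and Axin2) that was called over all 18 libraries, lower at 48 h than in CHIR (adjusted p = 0.0241).

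Rnf43, the ligase that clears Frizzleds from the surface, was counted at 37.1 to 42.3 CPM at 48 h, 36.0 to 45.1 CPM with WNT, 55.2 to 58.1 CPM with the FZD5 agonist and 28.7, 53.6 and 53.5 CPM with the FZD6 agonist. Over the 14 libraries it fell at 48 h against CHIR 2 by 0.80 (SE 0.115, adjusted p = 8.35e-05), and rose against 48 h withdrawal with the FZD5 agonist by 0.56 (SE 0.0851, adjusted p = 0.000395) and with the FZD6 agonist by 0.47 (SE 0.0940, adjusted p = 0.00382). Its relative Znrf3 fell at 48 h by 1.01 (SE 0.282, adjusted p = 0.0167) and rose with the FZD5 agonist by 0.71 (SE 0.213, adjusted p = 0.0374). With the FZD6 agonist Znrf3 gave 0.66 (SE 0.234, adjusted p = 0.0894). The co-receptor Lrp5 was lower at 48 h than in the single library CHIR 2 by 0.83 (SE 0.224). It was at 26.3 CPM in CHIR 2 and 26.2 CPM in CHIR 3, against 12.2 to 17.6 CPM at 48 h. CHIR 1, at 4.21 CPM, lay below every 48 h library. Against 48 h withdrawal Lrp5 rose with the FZD5 agonist by 0.73 (SE 0.167, adjusted p = 0.00861) and with the FZD6 agonist by 0.72 (SE 0.183, adjusted p = 0.0195). Lrp6, the other co-receptor, was called in no comparison and was at 61.5 to 87.1 CPM in the 14 libraries. Lgr4 was not called either. None of these changes of Rnf43, Znrf3 or Lrp5 was called over all 18 libraries.

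**Figure D4:**
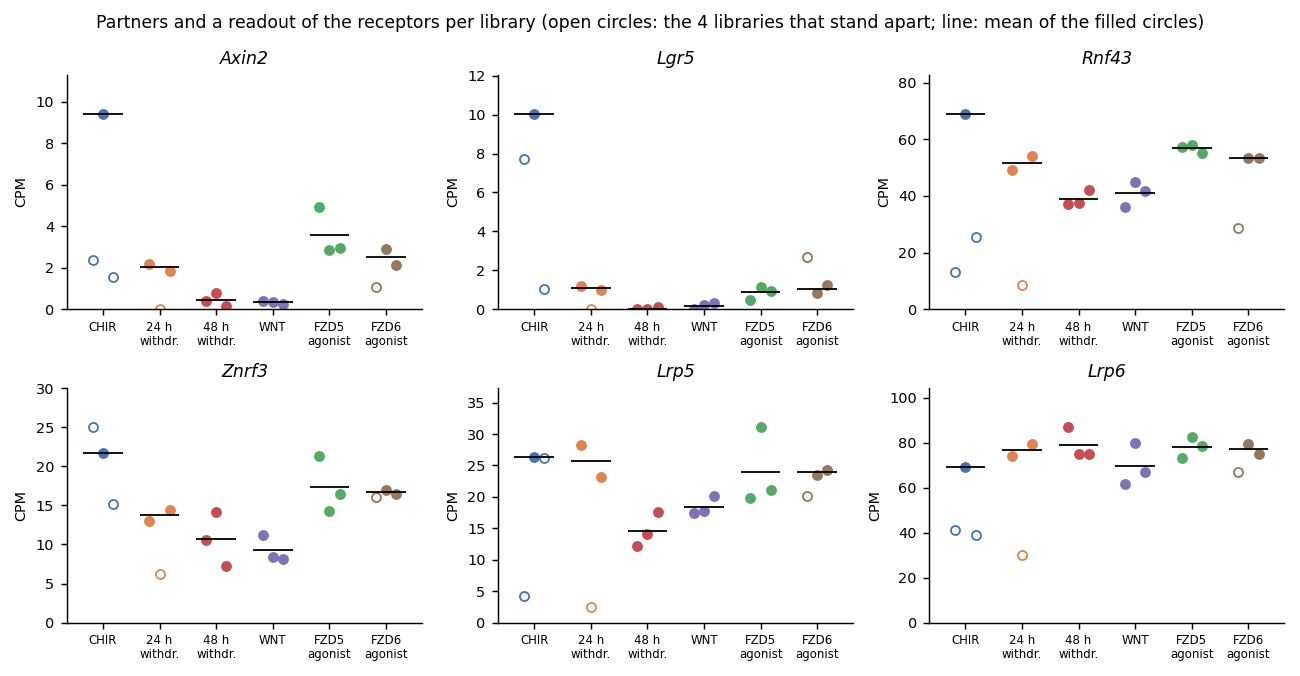
Each panel gives 1 partner or target of the receptors in CPM (linear axis from 0) for the 6 groups; points are libraries, open points are the 4 that stand apart, and the line is the mean of the filled points. Axin2, Rnf43 and Znrf3 are lower at 48 h and with WNT than with either agonist on average among the filled points, and the filled points of Lrp6 lie between 61.5 and 87.1 CPM.

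The wider pathway was read from 6 lists. Of the 13 co-receptors and receptor partners 12 were tested. Over the 14 libraries their median log2 fold change at 48 h against CHIR 2 was 0.21, against 0.01 over all genes. Against 48 h withdrawal 4 rose with the FZD5 agonist (median 0.24, against 0.02) and 2 with the FZD6 agonist (0.26, against 0.00), and none fell. Of all genes 8.86% rose and 6.84% fell with the FZD5 agonist, and 7.42% rose and 4.73% fell with the FZD6 agonist. Gpc3, a surface proteoglycan, rose by 0.71 (SE 0.0804, adjusted p = 3.32e-05) and 0.67 (SE 0.0884, adjusted p = 0.000146). It was at 98.8 to 110 CPM at 48 h and 148 to 183 CPM in the 5 ordinary agonist libraries, which did not overlap. Tspan12, a partner of Fzd4, rose from 24 h to 48 h by 0.98 (SE 0.189, adjusted p = 0.00354). Of the 12 genes of Frizzled turnover and R-spondins 7 were tested: 3 fell at 48 h against CHIR 2, 3 rose with the FZD5 agonist and 2 with the FZD6 agonist against 48 h withdrawal. In these 3 comparisons 13.9% of all genes fell, 8.86% rose and 7.42% rose.

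Of the 20 ligands 9 were tested, and 3 genes had no count in any library. Against CHIR 2 there were 3 ligands that rose at 48 h, among them Wnt4 by 2.26 (SE 0.203, adjusted p = 1.53e-06) and Wnt7a by 1.73 (SE 0.270, adjusted p = 0.000191), where 13.6% of all genes rose. Wnt4 was at 4.94 CPM in CHIR 2, 12.7 and 12.4 CPM in the 2 ordinary libraries at 24 h and 23.0 to 23.7 CPM at 48 h, and at 33.8 and 81.1 CPM in CHIR 3 and 24 h withdrawal 2. Wnt7b was the 1 ligand that rose against 48 h withdrawal with each agonist, by 0.86 (SE 0.128, adjusted p = 0.000321) with the FZD5 agonist and 1.15 (SE 0.139, adjusted p = 6.77e-05) with the FZD6 agonist. Wnt3a had no count in the 6 libraries of CHIR and 24 h withdrawal and was at 1.02 to 2.94 CPM at 48 h (adjusted p = 0.0397 against CHIR over all 18 libraries). These are transcript levels in cells given LGK974, and secreted protein was not measured.

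Of the 15 secreted and surface Wnt inhibitors 7 were tested, and none was called for either agonist against 48 h withdrawal. At 48 h 3 rose against CHIR 2, among them Kremen1, a receptor for Dkk proteins, by 0.41 (SE 0.112, adjusted p = 0.0131). For the lists that follow, of all genes 13.6% rose and 13.9% fell at 48 h against CHIR 2, 8.86% rose and 6.84% fell with the FZD5 agonist against 48 h withdrawal, and 7.42% rose and 4.73% fell with the FZD6 agonist. All 16 signal transducers were tested: 4 rose and 2 fell at 48 h against CHIR 2, and 2 rose and 1 fell with each agonist against 48 h withdrawal. The factor Tcf7 fell at 48 h by 3.52 (SE 0.389, adjusted p = 8.70e-06) and rose with the FZD5 agonist by 1.72 (SE 0.332, adjusted p = 0.00246) and the FZD6 agonist by 1.60 (SE 0.359, adjusted p = 0.00808). Nkd1, which binds Dishevelled and is itself known as a Wnt target, was at 4.81 to 8.81 CPM in CHIR and 30.6 to 67.8 CPM at 48 h, the reverse of the order of Axin2. It rose at 48 h against CHIR over all 18 libraries, by 2.95 (SE 0.417, adjusted p = 0.00398). Of the 10 planar polarity partners of Fzd3 and Fzd6, all tested, 1 fell at 48 h against CHIR 2, 1 rose with the FZD5 agonist against 48 h withdrawal, and 1 rose and 1 fell with the FZD6 agonist. Vangl1 rose with the FZD5 agonist by 0.37 (SE 0.0806, adjusted p = 0.00515) and with the FZD6 agonist by 0.38 (SE 0.0893, adjusted p = 0.0117), and Prickle1 fell with the FZD6 agonist by 1.04 (SE 0.299, adjusted p = 0.0332). Prickle1 was at 2.02 to 3.03 CPM at 48 h and at 1.31 and 1.01 CPM in the 2 ordinary FZD6 agonist libraries. FZD6 agonist 1, which is not in that fit, held 3.26 CPM, above every 48 h library. Of all listed genes, over the 18 libraries edgeR called Lgr5, Wnt3a and Nkd1 at 48 h against CHIR and Nkd1 with WNT against CHIR.

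Among the members, the log2 levels of Fzd5 and Fzd7 went together over the 14 libraries (Pearson r = 0.847), as did those of Fzd3 and Fzd8 (r = 0.781) and of Fzd1 and Fzd7 (r = 0.756); Fzd1 and Fzd5 had r = 0.641. Over all 18 libraries the same pairs had r of 0.518, 0.230, 0.964 and 0.334. Fzd6 and Fzd5 had r of 0.244 over the 14 and 0.195 over the 18. Of 10023 genes searched, the 3 most like Fzd5 over the 18 libraries were Bcl6 (r = 0.909, and 0.80 over the 14), Large2 (0.868 and 0.703) and Lrch1 (0.864 and 0.831). Those most like Fzd6 were Usp12 (0.989 and 0.732), Xpnpep3 (0.988 and 0.644) and Cep120 (0.988 and 0.715). These correlations describe libraries that share treatments and are given with no test.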

How the data were processed

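RNA libraries were made from total RNA with a TruSeq Stranded Total RNA kit, per the labels' protocols. GSNAP and the GRCm38 build are named in the submitters' processing notes; neither the counter nor its annotation and strand setting is given in the sources used here, so reads of overlapping or antisense genes may not be separable. The deposited files give, per gene and library, a whole-number count, a gene width and the authors' RPKM value; the deposited RPKM column was not used in any test. Of 52636 identifiers 99.7% had a symbol in GENCODE M21. Counts were scaled with TMM factors (edgeR 4.0.16, R 4.3.3), filtered with filterByExpr (16497 genes kept, 17433 in the fit of 14 libraries) and tested with glmQLFit (robust) and glmQLFTest over 6 group means, with Benjamini-Hochberg adjustment over all genes of a comparison and a threshold of 0.05. The 24 h withdrawal group as baseline for the ligands, DESeq2 1.42.0, other scaling factors and filters, a replicate block, fits of 2 groups, fits without 4 libraries and fits without 1 library were alternatives. CPM values use the scaling over all 18 libraries; the per-length levels divide them by the deposited width in kb, which for Fzd8 (3.346 kb) is shorter than its GENCODE M21 transcript (5974 bases). Intervals and floors cover counting and library spread only; 95% intervals come from the fitted standard error. No pair of libraries in a group agreed within sampling noise. Genes named beside the 10 members were 7 fixed partners and up to 2 called genes with the smallest p per list and comparison, with the 3 genes of highest correlation for Fzd5 and Fzd6 (log2 CPM with a prior count of 2, average of at least 2). The members, the lists, the rules and the 4 libraries left out were chosen with earlier results of these data known. The fits were tested on simulated data for the FZD5 agonist against 48 h withdrawal only. Comparisons with the single library CHIR 2 were not covered.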

Additional observations from a re-analysis of the deposited data

How the results depend on the processing

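Over all 18 libraries, the count of Frizzled genes called stayed at 0 in all 12 comparisons with RLE or upper-quartile factors, with no filter, with a filter of 1 CPM in 3 libraries and with the replicate block. DESeq2 called 1, for 48 h withdrawal against CHIR, and fits of only the groups compared called 1 for the FZD5 agonist against 48 h withdrawal and 1 for it against WNT. Without the 4 libraries the counts were 1 for 24 h withdrawal against CHIR, 5 for 48 h withdrawal against CHIR, 2 for 48 h against 24 h withdrawal, 1 for each agonist against 48 h withdrawal, 3 for WNT, 5 for the FZD5 agonist and 3 for the FZD6 agonist against CHIR, and 2 and 1 for the FZD5 and FZD6 agonists against WNT. DESeq2 without the 4 libraries, an alternative chosen after seeing the data, gave 3, 5, 2, then 2 and 1, then 3, 5 and 4, then 3 and 2 in that order. Leaving out 1 library at a time, from the 18 or, added later, from the 14, gave counts from 0 to 4 for 48 h withdrawal against CHIR, 0 to 2 for 48 h against 24 h withdrawal, 0 to 3 for the FZD5 agonist against 48 h withdrawal and 0 to 1 for the FZD6 agonist. Against CHIR they ran from 0 to 3 for WNT, 0 to 5 for the FZD5 agonist and 0 to 2 for the FZD6 agonist, and against WNT from 0 to 3 and 0 to 1. All counts above 0 from the 18 came from leaving out CHIR 3 (Fzd8, 48 h withdrawal against CHIR). Fzd8 at 24 h against CHIR was 0.26 over the 18 and ran from -0.25 (without CHIR 1, adjusted p = 0.773) to 1.17 (without CHIR 3). With the longest annotated transcript as length, the mean Fzd8 share of the summed level was 4.46% and Fzd6 with the FZD5 agonist was 18 CPM per kb.

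The replicate block called 0 members, as the fit without it did. The numbers gave no sign of pairing: same-numbered libraries correlated in their deviations with a median r of -0.02 (-0.52 to 0.47, 45 pairs), and 0 of 18 libraries were closest to their own number. The deviations in CHIR, 24 h withdrawal and FZD6 agonist include the 4 libraries that stand apart, so pairing could have been missed. With 3 libraries a group, 4 of them apart, the full set left intervals on Fzd8 that reached 2.72 on the log2 scale. With 1 CHIR library in the 14, the spread of CHIR itself was not measured.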
